A study of Homo sapiens with 2 samples.

Results

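The MYC, MAX and MXD network was examined in REH and 697, a pair of cell lines established from BCP-ALL, the acute lymphoblastic leukemia of B-cell precursors. Its 10 genes were chosen by name, namely MYC, MYCN, MYCL, MAX, MXD1, MXI1, MXD3, MXD4, MNT and MGA, out of 57773 genes in the count files. REH is positive for ETV6/RUNX1 and no longer has its other ETV6 allele, whereas 697 is negative for this fusion. Both are untreated established lines, and each is represented by 1 RNA sequencing library, so the variation between cultures is unknown and every value below compares these libraries. No p-value is given.

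MYC is a transcription factor that binds the DNA motif CACGTG, the E-box, only as a dimer with the small partner MAX, and it raises the expression of genes for growth, ribosome production and nucleotide synthesis. MXD1, MXI1, MXD3, MXD4, MNT and MGA also need MAX to bind the same motif. The MXD proteins and MNT recruit the SIN3 corepressor with its histone deacetylases, and MGA is the scaffold of a Polycomb complex, PRC1.6. MYC and its antagonists therefore draw on the same MAX protein, and MYC is a well-known driver of B-cell malignancies.

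The E-box occurs upstream of genes of the network itself and of genes it is known to regulate. A window of 300 bases around each gene start (RefSeq, GRCh38.p14, 250 bases before and 50 after) was searched for CACGTG, which reads the same on both strands. It was found in 7.26% of 35116 windows. Among 12074 tested genes with a window, 12.0% held the motif. MYC itself had no window and was not searched. Of the 9 network genes with a window, MNT and MXD4 held it. Stretches of 30 bases are shown 5′ to 3′ for these genes, for MLX, the MAX-like protein of a parallel network, and for target genes described below, with the E-box in capitals.
MNT, chr17:2401236-2401265, minus strand: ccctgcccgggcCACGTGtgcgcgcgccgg
MXD4, chr4:2262330-2262359, minus strand: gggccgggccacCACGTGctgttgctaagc
MLX, chr17:42567038-42567067, plus strand: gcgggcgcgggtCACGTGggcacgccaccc
ODC1, chr2:10448024-10448053, minus strand: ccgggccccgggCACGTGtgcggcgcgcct
SRM, chr1:11060200-11060229, minus strand: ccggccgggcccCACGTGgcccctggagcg
LDHA, chr11:18394366-18394395, plus strand: agactcccagcgCACGTGgagcagtctgcc
LDHA, chr11:18394464-18394493, plus strand: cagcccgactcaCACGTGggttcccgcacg
SLC7A5, chr16:87869620-87869649, minus strand: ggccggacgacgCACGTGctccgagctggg
The motif begins 193 bases before the start of MNT, 238 before MXD4, 50 before MLX and 29 before ODC1. In LDHA it occurs 185 and 87 bases before the start. A match of these letters is a description of the sequence and no evidence of binding in these cells.

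Reads counted in genes numbered 45188375 in REH (of 63954817 in all) and 41097497 in 697 (of 58948890). Expression is given as CPM, counts per 1e6 reads after scaling of the library totals by TMM, a trimmed mean of log ratios between libraries. Log2 ratios give REH relative to 697, computed with 0.5 reads added per count, with a 95% exact counting interval that covers counting error only. Without TMM scaling every log2 ratio would be 0.31 higher, and the sign of the ratio of each of the 10 network genes stayed the same. The B-cell precursor identity of the lines was checked with 12 marker genes, of which 12 in 697 and 11 in REH had at least 10 reads. The exception was VPREB1, a surrogate light chain gene, with 3 reads in REH. Of 8 T-cell markers, 4 in REH and 6 in 697 had 0 reads, and their summed level was 1.07 and 0.0541 CPM. Most of the sum in REH came from CD3E, with 45 reads in REH and 0 in 697. Of 8 myeloid markers, the summed level was 253 CPM in REH and 2.38 CPM in 697, nearly all of the former from MPO (12643 and 12 reads), while ELANE, S100A8 and S100A9 had 0 reads in both. The part of these levels in the results below was not tested.

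All 10 network genes reached the minimum of 10 reads in some library, and 9 of them in both. MYC was higher in 697, MGA and MXD1 were higher in REH, MAX hardly differed, and the other MXD genes were split in direction. A log2 ratio of at least 1 was found for 3 of the 10 (MYCN, MGA and MXD1), against 22.4% of the 19145 genes tested, and a ratio of -1 or lower for 2 of the 10 (MYC and MYCL), against 17.4%. At a log2 ratio of at least 2, these numbers were 1 (MYCN, background 12.5%) and 1 (MYCL, background 8.15%). These shares are near the background. The network as a list does not stand apart by its number of differing genes, and its median log2 ratio was 0.18, against 0.05 over all genes tested. In either direction, 5 of the 10 reached 1 in size against 39.8% of all genes, and 2 reached 2 in size against 20.7%. By sign alone, 6 of the 10 were higher in REH (background 52.1%) and 4 in 697 (47.9%). Large ratios were less frequent among the 8490 well-counted genes, those that reached 1000 reads in some library, which include 7 of the network genes. Of these 7 genes, MGA was at 1 or higher (background 10.7%) and MYC at -1 or lower (13.2%), which makes 2 in either direction (23.9%). None of the 7 reached 2 in size, against 4.64% of well-counted genes higher in REH, 4.89% higher in 697 and 9.53% together. By sign, 4 of the 7 were higher in REH (46.2%) and 3 in 697 (53.8%).

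**Figure D1:**
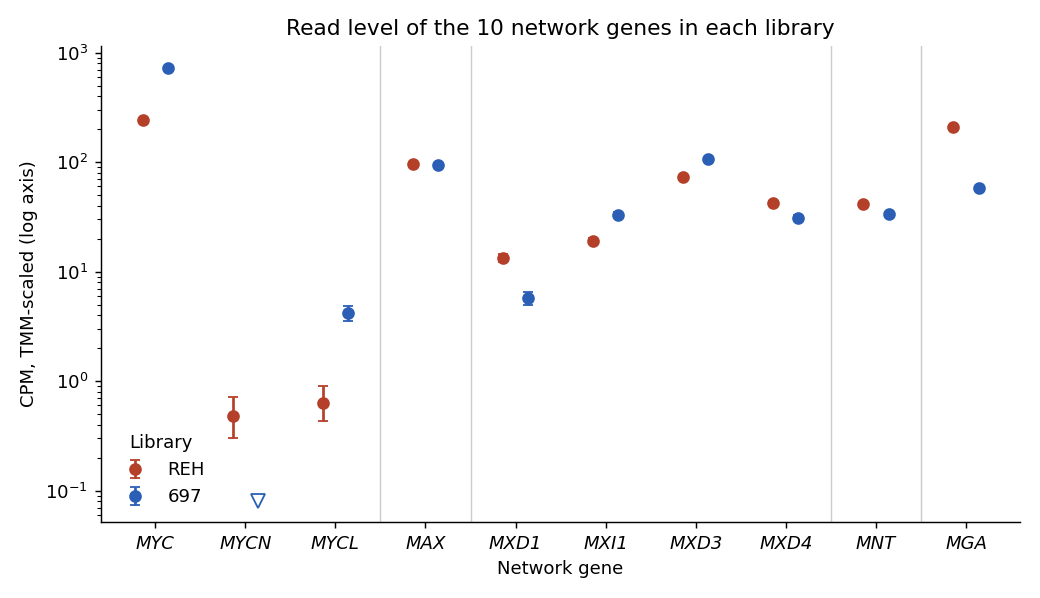
Read level (CPM after TMM scaling, log axis) of the 10 network genes in the REH (red) and 697 (blue) libraries, with 1 library per line. Bars are 95% exact Poisson counting intervals, often smaller than the points, and the open triangle marks the floor of 3 reads (0.0812 CPM) for MYCN in 697, where no read was counted. MYC is at 244 CPM in REH and 722 CPM in 697, MAX is level, and MGA is at 212 and 58.6 CPM.

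The MYC family was taken first. MYC (chromosome 8, 127735434 to 127742951, GRCh38, GENCODE 44) had 12286 reads in REH and 26677 in 697, or 244 and 722 CPM. It was thus 2.95-fold higher in 697, with a log2 ratio of -1.56 (interval -1.59 to -1.53). Of the well-counted genes, 7.04% had a ratio as low as that of MYC or lower. MYCL (chromosome 1, 39895428 to 39902256), a paralog first found in lung cancer, had 32 and 154 reads, or 0.637 and 4.17 CPM. Its log2 ratio was -2.69 (interval -3.31 to -2.15), in the same direction as MYC but at a far lower level. MYCN (chromosome 2, 15940550 to 15947007), the paralog amplified in neuroblastoma, had 24 reads in REH and 0 in 697. Against a floor of 3 reads it was at least 5.88-fold higher in REH. MYC therefore made up nearly all family reads in both lines, and both paralogs were scarce.

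Transcripts beside these genes were inspected because the MYC locus produces long non-coding RNAs. PVT1, the lncRNA gene downstream of MYC, had 1466 and 588 reads in REH and 697, or 29.2 and 15.9 CPM (log2 ratio 0.87, interval 0.73 to 1.01). It was higher in REH, the reverse of MYC itself. CASC11, which overlaps the start of MYC on the opposite strand by 194 bases of exon, had 4 reads in each library. MYCNOS, antisense to MYCN, had 2 and 0 reads, and MYCL-AS1 had 0 and 1. CASC19 and MYCNUT had 0 reads in both. These 5 transcripts were close to or below the floor of 3 reads, and differences between the lines were not detectable at this depth. CCAT1 was not analysed here.

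MAX (chromosome 14, 65006174 to 65102695), the shared dimer partner, had 4880 reads in REH and 3491 in 697, or 97.1 and 94.5 CPM. Its log2 ratio was 0.04 (interval -0.02 to 0.10), and it was the only network gene whose counting interval included 0. Without TMM scaling its ratio was 0.35. MYC reads relative to MAX reads do not depend on library scaling. This ratio was 3.04-fold higher in 697 than in REH (log2 difference REH minus 697 of -1.60, interval -1.67 to -1.53).

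The MXD genes encode the repressors that replace MYC on MAX as cells differentiate, and MXD1 is the classical member of this kind. MXD1 (chromosome 2, 69897688 to 69942945) had 669 reads in REH and 211 in 697, or 13.3 and 5.71 CPM, a 2.33-fold higher level in REH (log2 ratio 1.22, interval 1.00 to 1.45). MXD4 (chromosome 4, 2247432 to 2262109) had 2114 and 1150 reads, or 42.1 and 31.1 CPM (log2 ratio 0.43, interval 0.33 to 0.54). Both were higher in REH, MXD4 by a small margin. MXI1 (chromosome 10, 110207605 to 110287365), a family member known as a MYC antagonist that responds to hypoxia, had 956 and 1229 reads, or 19.0 and 33.3 CPM (log2 ratio -0.81, interval -0.93 to -0.68). MXD3 (chromosome 5, 177301461 to 177312757), which unlike its relatives is known from proliferating cells, had 3670 and 3963 reads, or 73.0 and 107 CPM (log2 ratio -0.55, interval -0.62 to -0.49). These family members were higher in 697, in the same direction as MYC. The family thus did not move as a unit between the lines, and no MXD gene but MXD1 reached a ratio of 1 in size.

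MNT (chromosome 17, 2384073 to 2401104), a broadly expressed MAX partner that limits MYC activity, had 2094 reads in REH and 1235 in 697, or 41.7 and 33.4 CPM. Its log2 ratio was 0.32 (interval 0.22 to 0.42), a small difference in favour of REH. MGA (chromosome 15, 41621134 to 41773081) is the largest protein of the network and is recurrently inactivated in lymphoid and lung tumours. It had 10632 and 2164 reads, or 212 and 58.6 CPM, and was 3.61-fold higher in REH (log2 ratio 1.85, interval 1.79 to 1.92). Of the well-counted genes, 5.04% had a ratio at least as high. MYC and MGA thus differed in opposite directions by more than counting error. MYC reads exceeded MGA reads by a log2 ratio of 0.21 in REH and 3.62 in 697, and this excess was 10.7-fold larger in 697. The annotated exons cover 6.11 kb in MYC and 20.1 kb in MGA. Only the 10.7-fold difference between the lines is therefore free of gene length, and the excess within a line is not a comparison of levels.

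**Figure D2:**
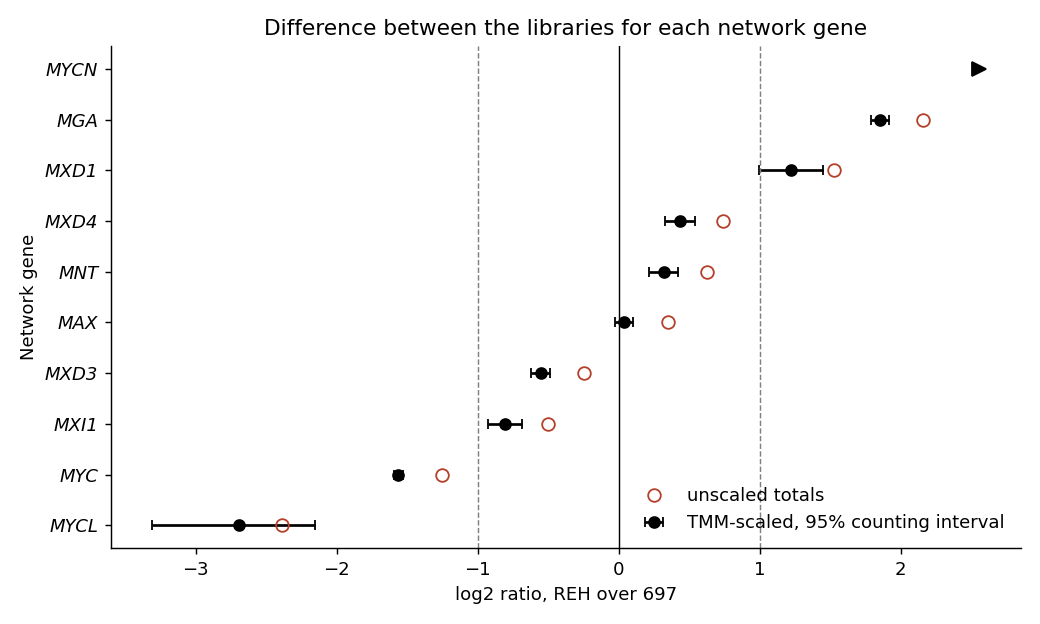
The log2 ratio of REH over 697 for each network gene, with TMM scaling (black points, bars are 95% exact counting intervals) and with unscaled totals (open red circles). Dashed lines mark a ratio of 1 in size, and the arrowhead marks the bound for MYCN against a floor of 3 reads, a log2 ratio of 2.56. MYC (-1.56) and MGA (1.85) lie on opposite sides, and MAX (0.04) lies near 0.

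The ratio of MYC to each other network gene was then compared between the lines, since it needs neither library scaling nor gene length. It was higher in 697 for MAX, MXD1, MXD3, MXD4, MXI1, MNT and MGA, the 7 genes outside the MYC family, with intervals that excluded 0. The smallest of these differences was that of MXI1 (1.69-fold, log2 difference -0.76, interval -0.88 to -0.63), followed by MXD3 (2.01-fold, -1.01, interval -1.08 to -0.94). Larger differences were found for MNT (3.68-fold), MXD4 (3.99-fold) and MXD1 (6.88-fold). MYCL was the exception, with a ratio of MYC to MYCL that was higher in REH (log2 difference 1.15, interval 0.60 to 1.70). MYCN was not compared in this way because it had 0 reads in 697. All of these comparisons share the MYC counts. Only 11.0% of all genes tested and 7.04% of well-counted genes had a log2 ratio as low as that of MYC or lower. Most genes would therefore give the same direction as the 7, and nothing about them is read from their number.

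Levels of different genes can be compared only per length, so CPM was divided by the kb of annotated exon. On this scale MYC was the most abundant network gene in both libraries, at 40.0 CPM per kb in REH and 118 in 697. This placed it above 94.4% of the protein-coding genes tested in REH and above 98.2% in 697. In REH, MAX (15.5 CPM per kb) and MXD3 (15.4) followed and could not be told apart by counting error. MGA (10.5), MXD4 (6.12), MNT (4.79), MXI1 (3.22) and MXD1 (2.10) came next, each separated from its neighbour by more than counting error. MYCN (0.173) and MYCL (0.128) were lowest and did not differ beyond counting error. In 697 the order changed. MXD3 (22.6 CPM per kb) came before MAX (15.1), and MXI1 (5.63) before MXD4 (4.53), MNT (3.84) and MGA (2.92). MXD1 (0.899) and MYCL (0.839) were not separated by counting error, and MYCN was not detected. MGA thus stood at rank 4 of 10 in REH and rank 7 of 10 in 697.

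The make-up of the network followed from these levels. The MYC family took 41.1% of the summed reads per kb in REH (counting interval 40.6% to 41.7%) and 68.2% in 697 (67.7% to 68.7%). MAX took 15.8% in REH (15.4% to 16.2%) and 8.65% in 697 (8.38% to 8.93%), and the MXD family took 27.4% (26.9% to 27.9%) and 19.3% (18.9% to 19.7%). MNT took 4.89% in REH and 2.20% in 697, and MGA 10.8% and 1.67%. After TMM scaling, the 6 MAX partners outside the MYC family summed to 42.2 CPM per kb in REH and 40.4 in 697. These levels were nearly the same, while the MYC family reached 40.3 and 119 CPM per kb. MYC-family reads per kb were therefore 0.956 times those of the 6 antagonists in REH and 2.94 times in 697. Without TMM scaling the log2 ratio of each sum would be 0.31 higher, and the 6 antagonists would be higher in REH. Their sum also joins opposite differences, with MGA at 10.5 and 2.92 CPM per kb and MXD3 at 15.4 and 22.6. Within the MXD family, MXD3 held the largest share in both lines (57.4% and 67.2%). MXD1 held 7.81% in REH and 2.67% in 697, MXI1 12.0% and 16.7%, and MXD4 22.8% and 13.4%.

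**Figure D3:**
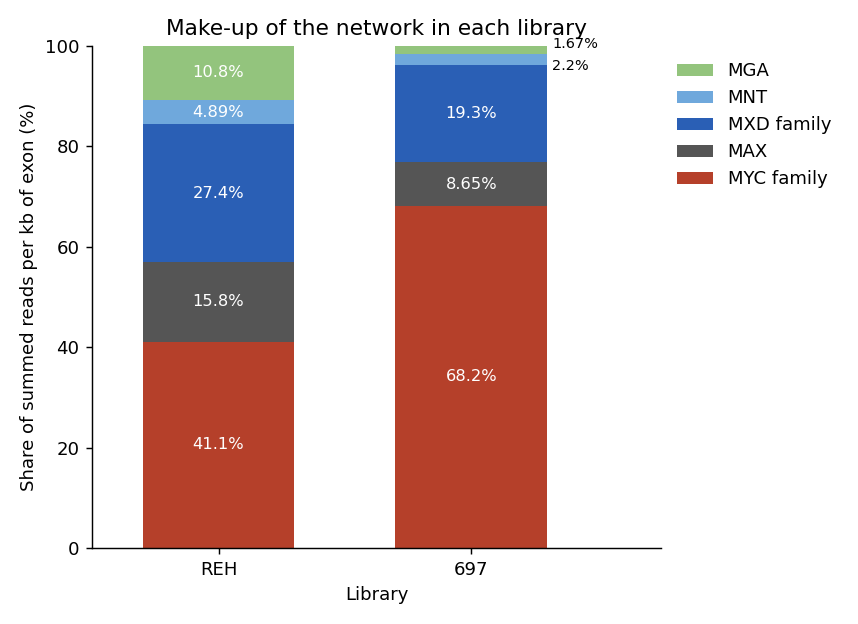
Share of each gene or family in the summed reads per kb of exon of the 10 network genes, as a percentage of the whole in the libraries of REH and 697. The MYC family takes 41.1% in REH and 68.2% in 697, and MGA takes 10.8% and 1.67%.

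Part of the reads of some network genes could not be assigned, because neighbouring genes share their exons and the libraries carry no usable strand information. For MXD3, whose exons share 1148 bases with PRELID1 on the opposite strand and 926 with RAB24 on its own strand, the either-strand count was 13.4% below the sum of the separate strand columns in REH and 21.1% below it in 697. With the strand columns summed, its log2 ratio was -0.69. Because reads divide evenly between the strands, this sum also takes in reads of PRELID1, itself counted with 449 reads in REH and 917 in 697. It therefore does not give the reads of MXD3 alone. For MNT the gap was 19.5% and 19.4%, and for MAX, which overlaps FNTB, 12.7% and 11.3%. Their ratios with the columns summed were 0.32 and 0.06, with the same limit. For MYC, MXD1 and MGA the columns added up to the either-strand count in both libraries. MXD1 also shares 237 bases of exon with SNRNP27 on its own strand, and reads that fall within both genes are ambiguous in every column. Reads of MYC divided evenly between the strands (49.4% and 49.9% on the strand of the gene), as did those of all genes together (50.1% and 50.2%).

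MLX forms a parallel network with the glucose-sensing factors MLXIP (MondoA) and MLXIPL (ChREBP), and MLX also binds MNT and MXD proteins. MLX was counted with 2540 and 2392 reads in REH and 697 (-0.36 on the log2 scale, interval -0.44 to -0.28). MLXIP had 21207 and 8796 reads (0.83, interval 0.79 to 0.86) and was the most abundant gene of this arm at 30.4 and 17.2 CPM per kb. MLXIPL had 16 and 0 reads, at least 3.92-fold higher in REH against the floor. The either-strand count of MLX was 28.0% below the sum of the strand columns in REH and 27.2% below it in 697.

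The corepressors used by the antagonists were compared as groups, with the shares of well-counted genes (10.7% at 1 or higher and 13.2% at -1 or lower) and of all genes tested (22.4% and 17.4%) as background. Of 17 genes of the SIN3-HDAC complex, none was at 1 or higher and 2 were at -1 or lower, the latter near the share of well-counted genes. The median was -0.12, which lay 0.18 below that of all genes tested and changed sign to 0.18 without TMM scaling. The lowest were ARID4B (2964 reads in REH and 5458 in 697, log2 ratio -1.32) and SAP30 (1298 and 2167, -1.18), both subunits of the complex. The highest were SUDS3 (6018 and 2253, 0.97), a subunit that holds the deacetylase to SIN3A, and BRMS1L (601 and 256, 0.79). SIN3A itself had 8877 and 6439 reads (0.02, interval -0.03 to 0.07). Of 11 genes of PRC1.6, in which MGA works with L3MBTL2, PCGF6 and E2F6, none reached a ratio of 1 in size (background 23.9% of well-counted and 39.8% of all genes), and the median was -0.23 (0.07 without TMM scaling). The largest ratios in this group were 0.71 for RING1 (3027 and 1363 reads), a ubiquitin ligase subunit, and 0.50 for L3MBTL2 (2117 and 1102). The lowest were -0.80 for YAF2 (783 and 999) and -0.74 for CBX3 (10733 and 13132). With so few genes, a count of 0 at 1 or higher is near the share of well-counted genes, and nothing is read from it.

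Cofactors and regulators of the MYC protein were compared next. Of 16 cofactor genes, 1 was at 1 or higher (background 10.7% of well-counted and 22.4% of all genes) and 1 at -1 or lower (13.2% and 17.4%), with a median of 0.16 against 0.05 over all genes. These counts do not set the cofactors apart. The histone acetyltransferase gene CREBBP was highest (30046 and 8339 reads, log2 ratio 1.41, interval 1.37 to 1.44), with its paralog EP300 next (14677 and 6591, 0.71). KAT2A, which encodes the acetyltransferase GCN5, was lowest (1739 and 4271, -1.74, interval -1.82 to -1.66), followed by ACTL6A (4645 and 4470, -0.39). TRRAP, the scaffold through which MYC recruits acetyltransferases, had 16962 and 8344 reads (0.58). Of 17 genes for turnover of the MYC protein, none was at 1 or higher and 2 were at -1 or lower, the latter near the same background, with a median of -0.16 (0.15 without TMM scaling). FBXW7, which directs phosphorylated MYC to degradation, had 2599 reads in REH and 12566 in 697, a log2 ratio of -2.72 (interval -2.78 to -2.66), and so was higher in the library with more MYC reads. PPP2R5A, a subunit of the phosphatase that acts on MYC, had 2198 and 3461 reads (-1.10). BTRC (2855 and 1223, 0.78) and STUB1 (2197 and 1178, 0.45), both ubiquitin ligase genes, were at the other end. TRRAP and SIN3A were named after their values were seen.

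Genes known to be activated by MYC were examined in a pair of lists. The target lists were taken from general knowledge, and the lists hold genes that respond to growth in general. Of 24 ribosome biogenesis targets, 17 had a log2 ratio below 0 (70.8%, against 47.9% of all genes and 53.8% of well-counted genes) and 7 above 0, and 19 lay below the median of all genes tested. None was at 1 or higher (background 22.4% of all and 10.7% of well-counted genes). A ratio of -1 or lower was found for 4, which is near the background of 17.4% and 13.2%. The median was -0.43, which is 0.48 below that of all genes tested, a distance that does not depend on the scaling. Over the well-counted genes the median was -0.07, which is nearer to that of the list. RRS1 (575 and 1877 reads, log2 ratio -2.15, interval -2.29 to -2.02), a factor for large ribosomal subunit assembly, was lowest, followed by the nucleolar GTPase gene GNL3 (3450 and 9329, -1.88, interval -1.94 to -1.82). NPM1 (16928 and 25885, -1.06) and RRP9 (1005 and 1564, -1.08) made up the rest of the 4, the count of NPM1 being uncertain because reads shared with its processed pseudogenes are left out. The highest were LYAR (1980 and 965, 0.59) and GRWD1 (3452 and 1970, 0.36). BOP1 was not analysed here.

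Of 32 targets for growth and metabolism, 27 had a log2 ratio below 0 (84.4%, against 47.9% of all genes and 53.8% of well-counted genes) and 5 above 0, and the same numbers lay below and above the median of all genes. A ratio of -1 or lower was found for 10 (background 17.4% of all and 13.2% of well-counted genes) and a ratio of 1 or higher for 1 (22.4% and 10.7%). The median was -0.67, which is 0.73 below that of all genes tested. The median of the well-counted genes, at -0.07, was nearer to it. ODC1, the rate-limiting enzyme of polyamine synthesis whose upstream E-box is shown above, was lowest, with 9761 and 41121 reads (log2 ratio -2.52, interval -2.55 to -2.49). TERT, the catalytic subunit of telomerase, had 1462 and 6139 reads (-2.51, interval -2.60 to -2.43). The others at -1 or lower, named because they make up the count, were IMPDH2 (-2.42) and PAICS (-1.10) of purine synthesis, MTHFD2 (-1.65) of mitochondrial folate metabolism, LDHA (-1.50) of lactate production, EIF4A1 (-1.28), CDC25A (-1.28), SRM (-1.14) of polyamine synthesis and NME1 (-1.10). CAD, a textbook MYC target of pyrimidine synthesis, hardly differed, with 13122 and 9770 reads (-0.02, interval -0.06 to 0.02). SLC7A5, an amino acid transporter gene that also has an upstream E-box, was higher in REH (64861 and 25701 reads, 0.89, interval 0.87 to 0.91). CCND2, a cyclin gene, had 168 reads in REH and 0 in 697, at least 41.2-fold higher in REH against the floor. The rest of the 5 above 0 were SHMT1 (0.58), PRMT5 (0.24) and SLC3A2 (0.08). LDHA has processed pseudogenes, and EIF4A1 and NME1 share exons with readthrough genes, so their counts are uncertain. CAD and the genes that make up the counts were named after their values were seen.

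Genes known to be repressed by MYC were few. Of 10 such genes tested, 7 had a log2 ratio below 0 (background 47.9% of all genes tested) and 3 above 0 (52.1%), with 5 at -1 or lower (17.4%) and 1 at 1 or higher (22.4%). The median was -0.85, on the same side of 0 as those of the activated lists. With so few genes it was not stable in size, at -0.55 without TMM scaling and -0.50 with a minimum of 50 reads. Lowest among those with at least 100 reads were NDRG1 (287 and 2086 reads, log2 ratio -3.30, interval -3.49 to -3.13), a stress and differentiation gene, and CDKN1C (47 and 268, -2.94), a cell cycle inhibitor gene. Highest were GADD45B (1602 and 411, 1.52, interval 1.36 to 1.68), a stress response gene, and CDKN2C (6215 and 2621, 0.80), an inhibitor of CDK4 and CDK6. The p53 target and cell cycle inhibitor gene CDKN1A had 6132 and 2674 reads (0.75) and CDKN1B 3101 and 3266 (-0.52). CDKN2B had 0 reads in both libraries. CEBPA, a myeloid factor, had 0 reads in REH and 29 in 697, at least 13.2-fold higher in 697. CDKN1A, CDKN1B and CEBPA were named after their values were seen.

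**Figure D4:**
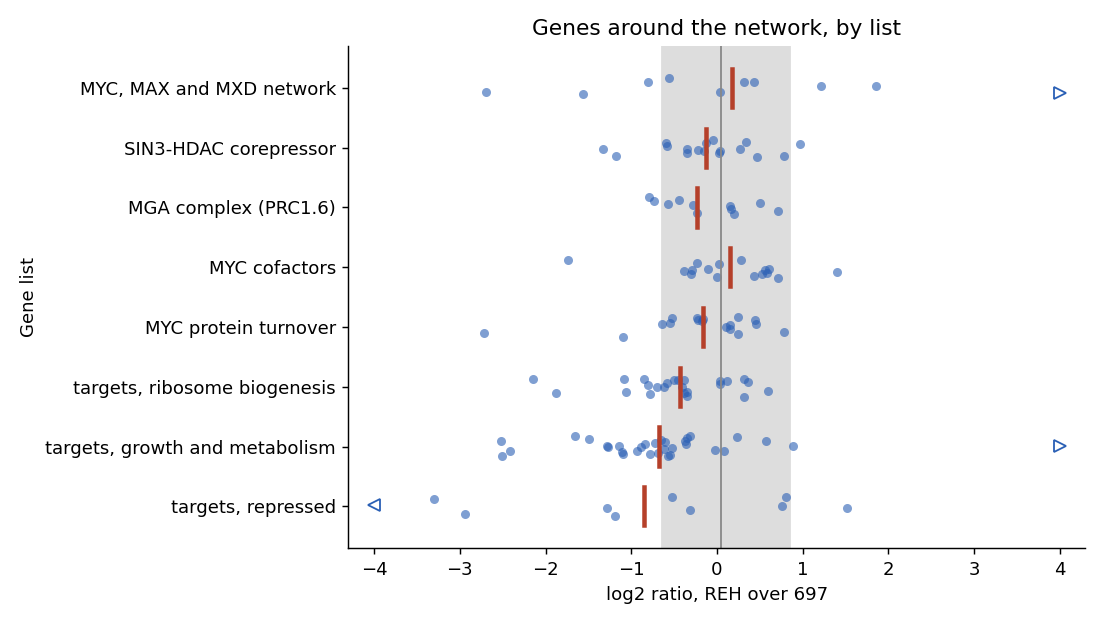
The log2 ratio of REH over 697 for every tested gene of 8 lists (blue points), with the list median as a red bar, the median of all 19145 genes tested as a grey line and their interquartile range (-0.65 to 0.85) as a grey band. Open triangles at the edges are genes beyond the axis, each with 0 reads in a library (MYCN, CCND2 and CEBPA), and the medians of the target lists for growth and metabolism (-0.67) and ribosome biogenesis (-0.43) lie left of the grey line.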

How the data were processed

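RNA of the lines was sequenced with 1 library each, grouped by the cell line in the labels. What the authors deposited are unnormalized counts of reads per gene from STAR, in columns for either strand and for each strand. The labels name hg19 and ribodepleted, stranded libraries, whereas the study's methods name hg38 and poly(A) purification, and the annotation release is not given in the sources used here. Multimapping reads are absent from the counts, which lowers genes with processed pseudogenes (NPM1, HSPD1, LDHA), and genes sharing exons with readthrough genes (NME1, HSPE1, PPAN, EIF4A1) are uncertain. The either-strand column was used. Symbols and positions came from GENCODE 44 (GRCh38), matched by gene ID (51996 matched, 5777 did not). Positions are not coordinates used by the authors.

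A gene was compared if either library had 10 reads or more (19145). TMM factors from edgeR 4.0.16 under R 4.3.3 were 1.11 for REH and 0.899 for 697. Intervals of log2 ratios are exact Clopper-Pearson, and those of shares and of ratios between genes are normal approximations to Poisson counting. All cover counting error only. Exon length is the union of GENCODE 44 exons. The network genes and the lists were chosen with earlier results of these data known. Genes named are the network, the MLX arm, overlapping genes, locus transcripts and, per list, the 2 highest and 2 lowest with at least 100 reads, and others are marked as named after their values were seen. Alternatives were unscaled totals, TMM factors of protein-coding genes, size factors of DESeq2 1.42.0, 5 reads added, other minima, each strand column and the longest transcript as length. Computations were tested on simulated data. Python 3.11.15 with scipy 1.17.1 was used otherwise.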

Additional observations from a re-analysis of the deposited data

How the results depend on the processing

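With 1 library per line no replicate could be left out, and no paired analysis was possible because REH and 697 were sequenced once each. The summed strand columns and the background over well-counted genes were added after seeing the data. The direction of each of the 10 network genes held under every setting. Without TMM scaling the log2 ratios were -1.26 for MYC, 0.35 for MAX, 1.53 for MXD1, -0.25 for MXD3, 0.74 for MXD4, -0.50 for MXI1, 0.62 for MNT and 2.16 for MGA, the last then above 2. MYC was at -1.53 in the opposite-strand column, MXD3 at -0.73 in the gene-strand column and -0.69 with both summed, and MYCN at 2.09 with 5 reads added. List medians without TMM scaling changed sign for SIN3-HDAC (0.18), PRC1.6 (0.075) and MYC turnover (0.15), and reached -0.37 for growth and metabolism, because every ratio shifts by 0.31. The MYC-family share was 38.3% and 39.4% in the strand columns and 38.9% by longest transcript in REH, and 64.4%, 65.4% and 64.9% in 697. The log2 difference of MYC to MXD3 was -0.83 and -0.92 in the strand columns. With a minimum of 1 read, 9320 genes were at 1 or higher, 7064 at -1 or lower and 4410 at -2 or lower. With a minimum of 50 reads, 2754 genes were at 1 or higher, 1477 at 2 or higher and 1036 at -2 or lower.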

Other observations

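Possession of an E-box was set against the difference between the lines. A match anywhere in the window of 300 bases was counted, including the 50 bases after the gene start, so these E-boxes are not all upstream. Of the 20 ribosome biogenesis targets with a window, 9 held CACGTG (45.0%), as did 16 of the 29 targets for growth and metabolism (55.2%), against 12.0% of the tested genes with a window. Over all tested genes, however, the median log2 ratio was 0.04 for genes with the motif and 0.04 for genes without it, and over the well-counted genes it was -0.02 and -0.06. Within the growth and metabolism targets the medians were -0.82 with the motif and -0.55 without it, whereas within the ribosome biogenesis targets they were -0.38 and -0.59. The presence of these letters near the gene start thus did not go with a common direction between the lines, and these are descriptions with no test.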
